A study of Homo sapiens with 6 samples.

Results

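The genes described here are 32 human genes of the solute carrier families that move amino acids across membranes. They were chosen by name, through the Ensembl identifiers that carry these symbols in gencode release 44, and all 32 were found among the 60676 genes of the deposited tables. HT29 cells, an established human colorectal adenocarcinoma line described in the labels as wild type (WT), were kept for 48 h in control medium (untreated), in histidine-free or in tryptophan-free medium. Each condition has 2 libraries of polyadenylated RNA. Histidine-free medium was built on RPMI and tryptophan-free medium on DMEM F-12, both with dialyzed serum, whereas HT29 cells were otherwise grown in DMEM. The base of the control medium is not given for the sequenced cells, while complete RPMI served as the control for mass spectrometry after such depletions. The bases differ in other amino acids too, so the missing amino acid and the base of the medium cannot be told apart between the depletions, nor, with the base of the control unknown, against untreated cells.

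Amino acid transporters are grouped into systems by what they carry and what drives them. SLC7 proteins of the heteromeric kind need a partner of the SLC3 family to reach the membrane, SLC38 and SLC1 proteins draw on the sodium gradient, and some SLC36 proteins, such as SLC36A1, are coupled to protons. When an amino acid runs short, uncharged transfer RNA activates the kinase GCN2, which phosphorylates eIF2alpha and favours translation of the transcription factor ATF4. ATF4 then switches on amino acid synthesis enzymes, transfer RNA synthetases and several of these transporters. A further set of transporters sits in the lysosome, where SLC38A9 reports arginine to the kinase complex mTORC1.

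Values are normalized counts, which are reads divided by a size factor for each library, with all 6 libraries scaled together. Fold changes against untreated cells come from limma within the table of each depletion, on log2(normalized count + 1), are given ± standard error and can differ slightly from the ratio of the values printed here. The tables hold 46390819 to 64388876 reads per library. Whether replicates were separate cultures is not given, so the tests measure only the spread between these libraries, which may be technical. Of 12 colon epithelial markers, 9 were at 100 normalized counts or more in every library, and their summed level was 449179 to 477223 in untreated, 583355 to 616517 in histidine-depleted and 639313 to 643297 in tryptophan-depleted libraries. That sum is carried by KRT8 and KRT18. Without histidine 5 of the 12 were called higher, 2 of them by at least 2-fold, and 7 lower, 5 of them by at least 2-fold. Of all genes tested 39.1% were higher and 38.2% lower, and 16.4% and 16.1% by at least 2-fold. Without tryptophan 6 markers were higher and 3 lower, where 36.1% and 34.8% of all genes were. KRT20 rose in both media (1.74 and 2.38 on the log2 scale). Without histidine KRT19 rose as well (1.55), and LGALS4 and CDX2 fell (-1.57 and -1.37). CDX1 and GPA33 were under 100 in every library and CEACAM5, a differentiation antigen, in 1 of them, with 497 and 540.1 counts in untreated, 66.9 and 105 in histidine-depleted and 7952 and 7856 in tryptophan-depleted libraries. Of 8 leukocyte and mast cell markers, 6 stayed at or under 3 reads in every library, PTPRC, KIT, TPSAB1 and CPA3 among them. Their summed level was 119 to 141 in untreated, 54.2 to 67.2 in histidine-depleted and 369.9 to 385 in tryptophan-depleted libraries, most of it CD14. Of 6 fibroblast and endothelial markers 2 were at or under 3 reads in every library, with a summed level of 80.4 to 129. The part of these lists in the results below was not tested.

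The transporter genes took 0.545% and 0.551% of all reads in untreated cells, 0.506% and 0.511% without histidine and 0.768% and 0.788% without tryptophan. SLC1A5, SLC7A1, SLC7A5, SLC38A1, SLC3A2 and SLC38A2 held most of these reads, between 79.9% and 87.3% per library. Set per length, as normalized counts per kb of canonical transcript, SLC1A5, the glutamine and neutral amino acid exchanger ASCT2, stood highest in untreated cells with a mean of 16605. SLC3A2 followed with 11266, SLC7A5 with 9457, SLC7A1 with 6728, SLC38A2 with 5625 and SLC38A1 with 4622. The libraries of neighbours in this order did not overlap, down to SLC1A1 and SLC1A4, whose ranges did. After histidine depletion SLC3A2 (22751) stood above SLC1A5 (18077), and SLC38A1 moved above SLC7A1. After tryptophan depletion the order of the first 3 was that of untreated cells, with means of 29638, 24022 and 14992, and SLC7A1 and SLC38A2 overlapped.

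Of the 32 genes, 27 reached the mean of 10 normalized counts needed for a test against untreated cells, and 26 the one for the direct comparison. After histidine depletion 11 were higher and 12 lower (limma, adjusted p under 0.05). This is 23 of 27 tested, where 77.3% of all 18288 tested genes were called, 39.1% higher and 38.2% lower. After tryptophan depletion 13 were higher and 10 lower, again 23 of 27, against 70.8% of all 17960 tested genes, 36.1% higher and 34.8% lower. Untreated and depleted libraries did not overlap in 27 of 27 genes in either comparison, as in 88.1% and 84.1% of all genes. With a change of at least 2-fold required, 4 rose and 4 fell after histidine depletion, where the share of all genes was 16.4% higher and 16.1% lower, 32.5% together. SLC3A2, SLC7A6, SLC7A9 and SLC36A1 rose by that much, and SLC7A7, SLC7A11, SLC16A10 and SLC43A1 fell. After tryptophan depletion 3 rose and 3 fell at that limit, where 10.0% and 10.4% of all genes did, 20.5% together. SLC6A9, SLC1A4 and SLC3A2 were the genes that rose, and SLC7A7, SLC16A10 and SLC7A8 those that fell.

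Set side by side, 6 genes were called higher and 6 lower in both depletions, comparisons that share the untreated libraries. Of the 17470 genes tested in both, 19.6% were higher and 21.5% lower in both. Called in opposite directions were 9 of the 27, as were 18.0% of all genes. SLC7A8, SLC43A2, SLC6A6 and SLC36A1 were higher without histidine and lower without tryptophan, and SLC7A5, SLC1A4, SLC38A5, SLC38A10 and SLC6A9 the reverse. In the direct comparison, where the untreated libraries enter only the shared size factors, 9 of 26 tested genes had the higher level in histidine-free and 14 in tryptophan-free medium, where 39.9% and 38.4% of all 18276 tested genes did. The groups did not overlap in 23 of 26, as in 88.8% of all genes. At least 2-fold higher were SLC7A8, SLC43A2, SLC36A1 and SLC7A6, and at least 2-fold lower SLC6A9, SLC1A4, SLC38A10, SLC38A5 and SLC43A1 (16.4% and 15.7% of all genes, 32.1% together). All values of a gene in bulk RNA are averages, so fewer cells that express it and less RNA per cell cannot be told apart.

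**Figure D1:**
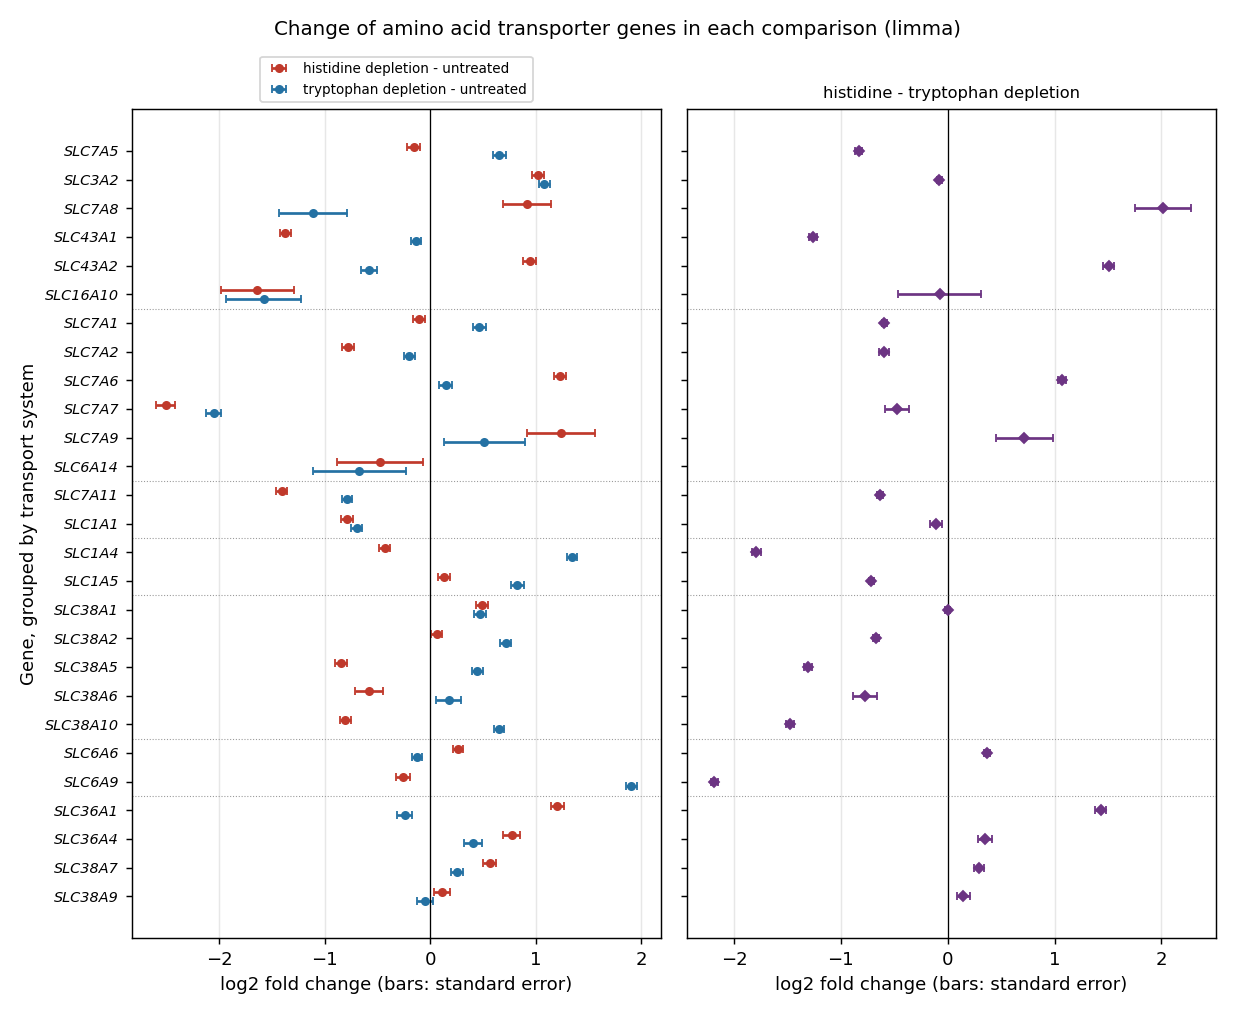
Log2 fold change of each transporter gene from limma with its standard error, against untreated cells (left, histidine and tryptophan depletion) and directly between the depletions (right), with dotted lines between transport systems. The direct difference runs from -2.18 for SLC6A9 to 2.02 for SLC7A8, while SLC38A1 and SLC16A10 lie at or near 0.

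System L takes up large neutral amino acids, histidine and tryptophan among them, through SLC7A5 (LAT1) in complex with the heavy chain SLC3A2 (CD98hc, 4F2hc). The light and heavy chain genes changed in unlike ways. SLC7A5 (chromosome 16, 87830023 to 87869507 of GRCh38) had 41320.0 and 44857 normalized counts in the untreated libraries, 37248 and 39586 without histidine and 66861 and 69748 without tryptophan. The tryptophan-depleted libraries were the highest and those without histidine lay just below the untreated ones. It rose 1.58-fold after tryptophan depletion (0.66 ± 0.0577 on the log2 scale, limma adjusted p = 7.25e-21). After histidine depletion it was slightly lower (-0.16 ± 0.0599 on the log2 scale, limma adjusted p = 0.0215). The call was lost in limma without the trend (limma adjusted p = 0.146) and without the filter on low values (limma adjusted p = 0.0517). It was also lost without either histidine-depleted library (-0.12 without replicate 1 and -0.20 without replicate 2). The size of this change was -0.094 without untreated replicate 2 and -0.47 with quantile normalization. Pseudogenes SLC7A5P1 and SLC7A5P2 carry the name of SLC7A5, and how the counting treated reads shared with them is not given.

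SLC3A2 (chromosome 11, 62856004 to 62888880) gave 20850.2 and 21623 counts in untreated cells, 42879 and 42893 without histidine and 44302 and 46259.5 without tryptophan. Both depletions stood about as far above the untreated libraries, 2.03-fold (1.02 ± 0.0541 on the log2 scale, limma adjusted p = 1.22e-14) and 2.12-fold (1.08 ± 0.052 on the log2 scale, limma adjusted p = 3.74e-43). Their direct difference was small (-0.078 ± 0.026 on the log2 scale, limma adjusted p = 0.0165) and was not called without tryptophan-depleted replicate 2 (-0.047, limma adjusted p = 0.225). The heavy chain transcript thus passed 2-fold in both media, though not with quantile normalization (0.75 and 0.95 on the log2 scale) or, for histidine, without untreated replicate 1 (0.99).

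The remaining carriers of this kind were lower in abundance. SLC43A1 (LAT3), a sodium-independent carrier of leucine, phenylalanine and other large neutral amino acids, fell from 8452 and 8998 to 3197 and 3506 without histidine, or 2.59-fold (-1.37 ± 0.0543 on the log2 scale, limma adjusted p = 4.45e-17). Without tryptophan it held 7977 and 8044 counts, close to the untreated level (-0.13 ± 0.0467 on the log2 scale, limma adjusted p = 0.00962), and this small change was -0.085 without untreated replicate 2 and not called without tryptophan-depleted replicate 1 or 2 (-0.12 and -0.14, limma adjusted p = 0.216 and 0.131). SLC43A2 (LAT4), its close relative, moved the other way. It had 802 and 785 counts in untreated cells, 1496 and 1540.5 without histidine (0.94 ± 0.0638 on the log2 scale, limma adjusted p = 1.45e-12) and 525 and 541 without tryptophan (-0.58 ± 0.0743 on the log2 scale, limma adjusted p = 4.36e-12). The direct difference was -1.26 for SLC43A1 and 1.51 for SLC43A2, so these relatives differed between the media in opposite directions.

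SLC7A8 (LAT2), another light chain that pairs with SLC3A2, was rare in these cells, with 32.8 and 39.8 counts in the untreated, 60.5 and 78.3 in the histidine-depleted and 19.2 and 13.7 in the tryptophan-depleted libraries. The 3 groups did not overlap. The fold change was 0.92 on the log2 scale after histidine and -1.11 after tryptophan depletion, and 2.02 between the depletions (limma adjusted p = 8.46e-04, 0.00119 and 2.00e-05). Another gene on its strand covers 4.62% of its exonic bases. SLC16A10 (TAT1), a carrier of aromatic amino acids including tryptophan, fell in both media, from 32.8 and 32.8 to 11.7 and 8.14 and 10.7 and 10.1 counts (-1.64 and -1.58 on the log2 scale, limma adjusted p = 1.55e-04 and 4.19e-05). Each of its libraries held between 8 and 33 reads. The depletions overlapped in SLC16A10 and did not differ past the threshold (-0.075 ± 0.39 on the log2 scale, limma adjusted p = 0.869), with a sign that turned without histidine-depleted replicate 2 (0.17).

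SLC7A1 (CAT1), the main carrier of arginine and lysine in many cell types, was among the most abundant of the genes, with 47927 and 50886 counts in untreated, 44715 and 46412 in histidine-depleted and 68068 and 69193 in tryptophan-depleted libraries. It rose without tryptophan (0.47 ± 0.0582 on the log2 scale, limma adjusted p = 1.39e-12). Without histidine it was at -0.11 and not called (limma adjusted p = 0.102), although edgeR and DESeq2 on the recovered reads and the limma fit on all 6 libraries called it lower at nearly the same size, as did limma without untreated replicate 1 (-0.15, limma adjusted p = 0.000902) and with quantile normalization (-0.45). Without untreated replicate 2 it was -0.061 (limma adjusted p = 0.118). SLC7A2 (CAT2), its inducible relative, had 2108 and 2122 counts in untreated cells and fell to 1199.8 and 1250.5 without histidine (-0.78 ± 0.0581 on the log2 scale, limma adjusted p = 1.01e-11) and, less, to 1873 and 1834 without tryptophan (-0.20 ± 0.0533 on the log2 scale, limma adjusted p = 5.40e-04).

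The y+L light chains, which exchange cationic for neutral amino acids together with SLC3A2, parted. SLC7A7 (y+LAT1; chromosome 14, 22773222 to 22829820) went from 1409 and 1397 in untreated cells to 217 and 275 without histidine and 329.7 and 349 without tryptophan. Of the 27 genes tested here none fell further in either depletion, SLC7A7 falling 5.69-fold (-2.51 ± 0.0918 on the log2 scale, limma adjusted p = 9.94e-18) and 4.15-fold (-2.05 ± 0.0728 on the log2 scale, limma adjusted p = 1.78e-57). It was lower without histidine than without tryptophan (-0.47 ± 0.113 on the log2 scale, limma adjusted p = 0.00239), a difference of -0.30 without histidine-depleted replicate 1. Limma without the trend did not call this difference (limma adjusted p = 0.0548). SLC7A6 (y+LAT2) showed 1262 and 1204 counts in untreated, 2891 and 2864 in histidine-depleted and 1362 and 1381 in tryptophan-depleted libraries. It rose 2.35-fold without histidine (1.23 ± 0.0565 on the log2 scale, limma adjusted p = 7.96e-16). The small rise without tryptophan (0.15 ± 0.0592 on the log2 scale, limma adjusted p = 0.0222) was not called without untreated replicate 2 (0.11, limma adjusted p = 0.0752) or without tryptophan-depleted replicate 1 or 2 (0.16 and 0.13, limma adjusted p = 0.0936 and 0.189). SLC7A6OS and another gene on the opposite strand cover 55.6% of the exonic bases of SLC7A6, so a count made without regard to strand could mix them.

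SLC7A9, the light chain of the renal and intestinal cystine and dibasic amino acid carrier, had 12 and 13 reads in the untreated libraries and rose to 32.5 and 31.5 normalized counts without histidine (1.24 ± 0.321 on the log2 scale, limma adjusted p = 0.00121). Without tryptophan it stood at 18.1 and 20.1 and was not called (limma adjusted p = 0.228), although limma without the trend called it higher (0.51, limma adjusted p = 0.0101). The call of its direct difference of 0.72 was lost without histidine-depleted replicate 1 or 2 or without tryptophan-depleted replicate 1 (0.69, 0.74 and 0.64). It was also lost in DESeq2 (DESeq2 adjusted p = 0.205) and without the filter on low values (limma adjusted p = 0.0550). SLC6A14 (ATB0,+), a concentrative carrier of neutral and cationic amino acids, held 8 to 14 reads per library and passed the test in neither depletion (-0.47 and -0.67, limma adjusted p = 0.294 and 0.168). Limma without the trend called it lower without tryptophan (limma adjusted p = 0.00587). Its value without histidine was -0.77 without histidine-depleted replicate 1 and -0.18 without replicate 2. Pseudogenes named after it number 3.

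SLC7A11 (xCT), which exchanges intracellular glutamate for cystine and so feeds glutathione synthesis, fell in both media. Its 16885 and 17449.7 counts in untreated libraries (chromosome 4, 138164097 to 138242349) compare with 6353 and 6507 without histidine and 9819 and 10149 without tryptophan. The decrease was 2.65-fold without histidine (-1.41 ± 0.0496 on the log2 scale, limma adjusted p = 4.79e-18) and 1.73-fold without tryptophan (-0.79 ± 0.0473 on the log2 scale, limma adjusted p = 8.44e-34), and the depletions differed directly by -0.63 (limma adjusted p = 1.31e-09). An antisense gene covers 8.97% of its exonic bases. SLC1A1 (EAAT3), a glutamate and cysteine carrier, fell from 2703 and 2958 to 1558 and 1697 and 1819 and 1690.3 counts (-0.79 and -0.70). Its depletion groups overlapped, and the direct difference of -0.11 was not called (limma adjusted p = 0.0782). It was called in some alternatives, among them the fit without histidine-depleted replicate 2 (-0.17, limma adjusted p = 0.00785). Leaving out histidine-depleted replicate 1 instead brought it to -0.0472 (limma adjusted p = 0.433), and leaving out tryptophan-depleted replicate 1 to -0.0560 (limma adjusted p = 0.466).

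The ASC exchangers trade neutral amino acids such as alanine, serine, cysteine and, for SLC1A5, glutamine. SLC1A4 (ASCT1; chromosome 2, 64988477 to 65023865) had 3329 and 3472 counts in untreated, 2411 and 2599.7 in histidine-depleted and 8441 and 8888 in tryptophan-depleted libraries. It rose 2.53-fold without tryptophan (1.34 ± 0.0472 on the log2 scale, limma adjusted p = 8.53e-58) and fell without histidine (-0.43 ± 0.0548 on the log2 scale, limma adjusted p = 1.31e-07). SLC1A5 (chromosome 19, 46774883 to 46788594) had 47045 and 48667 counts in untreated, 51201 and 52993 in histidine-depleted and 84844 and 85989 in tryptophan-depleted libraries, a rise of 1.78-fold without tryptophan (0.83 ± 0.0592 on the log2 scale, limma adjusted p = 2.35e-27). Without histidine the change of SLC1A5 was small (0.13 ± 0.0586 on the log2 scale, limma adjusted p = 0.0451). It was not called in limma without the trend (limma adjusted p = 0.119) or without histidine-depleted replicate 1 or 2 (0.15 and 0.11). With quantile normalization it turned to -0.21 and was called lower (limma adjusted p = 5.12e-05). Both were lower after histidine than after tryptophan depletion, with direct differences of -1.79 for SLC1A4 and -0.71 for SLC1A5 (limma adjusted p = 2.82e-12 and 9.98e-11).

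Among SLC38 genes, SLC38A1 (SNAT1) and SLC38A2 (SNAT2) encode sodium-coupled carriers of glutamine and other small neutral amino acids, and SNAT2 is known to be induced by amino acid shortage. SLC38A2 held 26947 and 26999 counts in untreated, 28447 and 27534 in histidine-depleted and 43529 and 45547 in tryptophan-depleted libraries. It rose without tryptophan (0.72 ± 0.0528 on the log2 scale, limma adjusted p = 3.32e-26). Without histidine its change of 0.062 was not called (limma adjusted p = 0.29) and was 0.036 without histidine-depleted replicate 1. With quantile normalization it was -0.21 and called lower (limma adjusted p = 4.63e-04). SLC38A1 rose in both media, from 36593 and 38249 to 52628 and 51714 without histidine (0.49 ± 0.0576 on the log2 scale, limma adjusted p = 3.98e-08) and 51002 and 53429 without tryptophan (0.47 ± 0.0552 on the log2 scale, limma adjusted p = 7.50e-14), although with quantile normalization these changes were 0.16 and 0.27. The depletions overlapped in SLC38A1, and their direct difference (-0.00090, standard error 0.0270) was smaller than its error and turned positive without histidine-depleted or tryptophan-depleted replicate 2 (0.012 and 0.033), while quantile normalization gave -0.12 and a call (limma adjusted p = 0.00192).

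SLC38A5 (SNAT5), a system N carrier of glutamine, asparagine and histidine, had 2507 and 2657 counts in untreated cells. It fell to 1419 and 1439 without histidine (-0.84 ± 0.057 on the log2 scale, limma adjusted p = 1.49e-12) and rose to 3519 and 3564 without tryptophan (0.45 ± 0.0498 on the log2 scale, limma adjusted p = 6.00e-15), which left the depletions 2.48-fold apart. SLC38A10, a further relative, changed in the same directions, with 4956 and 5085 counts in untreated, 2762 and 2959.9 in histidine-depleted and 8005 and 7889 in tryptophan-depleted libraries (-0.80 and 0.66 on the log2 scale, -1.47 directly, limma adjusted p = 5.71e-12). An unnamed gene that runs antisense to SLC38A10 overlaps 7.71% of its exonic bases. SLC38A6, a little studied relative, fell without histidine from 211 and 190.0 to 130.1 and 135 (-0.58 ± 0.132 on the log2 scale, limma adjusted p = 3.52e-04) and was at 223 and 233 without tryptophan, not called (0.18, limma adjusted p = 0.175, and 0.10 without untreated replicate 2).

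SLC6A9 (GlyT1; chromosome 1, 43991500 to 44031467) takes up glycine with sodium and chloride. Its counts were 1385 and 1515 in untreated, 1203 and 1205 in histidine-depleted and 5489 and 5452 in tryptophan-depleted libraries. Of the transporter genes tested, it rose most without tryptophan, 3.76-fold (1.91 ± 0.0506 on the log2 scale, limma adjusted p = 1.93e-72), while it was lower without histidine (-0.26 ± 0.0635 on the log2 scale, limma adjusted p = 7.95e-04). The direct difference was 4.54-fold (-2.18 ± 0.0349 on the log2 scale, limma adjusted p = 2.34e-13). CCDC24, antisense to it, covers 7.87% of its exonic bases. SLC6A6 (TauT), the taurine carrier, changed little, with 6396 and 6314 counts in untreated, 7635 and 7515 in histidine-depleted and 5780.4 and 5964 in tryptophan-depleted libraries. These were called higher (0.26, limma adjusted p = 3.46e-05, and 0.044 with quantile normalization) and lower (-0.12, limma adjusted p = 0.0156), the latter not without tryptophan-depleted replicate 1 or 2 (-0.093 and -0.15, limma adjusted p = 0.321 and 0.0967).

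Of the 4 SLC36 and lysosomal SLC38 carriers, 3 rose without histidine and 0 fell, where 39.1% of all genes were higher and 38.2% lower. SLC36A1 (PAT1; chromosome 5, 151437046 to 151492379), which exports small neutral amino acids from lysosomes with protons, went from 738 and 736 in untreated to 1696 and 1688 in histidine-depleted libraries, 2.31-fold (1.21 ± 0.0631 on the log2 scale, limma adjusted p = 1.01e-14). Without tryptophan it held 636 and 618 counts, below the untreated libraries (-0.24 ± 0.073 on the log2 scale, limma adjusted p = 0.00217), a call not made with quantile normalization (-0.11). SLC36A4 (PAT4), a high affinity carrier of proline and tryptophan, rose in both media, from 371 and 374 to 635 and 629.8 (0.77 ± 0.0832 on the log2 scale, limma adjusted p = 8.61e-09) and 508 and 483 (0.40 ± 0.0874 on the log2 scale, limma adjusted p = 1.83e-05). SLC38A7 (SNAT7), the lysosomal exporter of glutamine and asparagine, did so too, from 1247 and 1210.5 to 1795 and 1818 without histidine and 1436 and 1512 without tryptophan (0.56 and 0.25, limma adjusted p = 4.77e-09 and 5.73e-05).

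SLC38A9, the arginine sensor of mTORC1, stayed between 602 and 680.3 counts in the 6 libraries and was called against untreated cells in neither depletion (0.11 and -0.05, limma adjusted p = 0.168 and 0.566). With quantile normalization it was higher without histidine (0.33, limma adjusted p = 0.00102) and at 0.075 without tryptophan. It differed slightly between the depletions (0.15 ± 0.0597 on the log2 scale, limma adjusted p = 0.0397), a call lost without histidine-depleted replicate 1 (0.13, limma adjusted p = 0.119) or without tryptophan-depleted replicate 1 or 2 (0.14 and 0.16, limma adjusted p = 0.141 and 0.0999). In the direct comparison all 4 genes of this group were called higher in histidine-free medium, as were 39.9% of all genes, and SLC38A9 lost that call in 8 of 14 alternatives.

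The other 5 genes stayed under the limit for a test. SLC1A3 (EAAT1) had 1 read in each untreated library and 0 in the other 4, and a count of 0 allows up to 3 reads. SLC6A19 (B0AT1), the apical neutral amino acid carrier of the small intestine, and SLC38A3 (SNAT3), a carrier of glutamine and histidine known from liver, held 0 to 1 and 0 to 3 reads per library. SLC3A1 (rBAT), the heavy chain of SLC7A9, held 0 to 7 reads, and PREPL on the opposite strand and another gene on its own strand cover 29.4% and 26.9% of its exonic bases. SLC43A3, a relative of LAT3 that is known as a purine nucleobase carrier, had 2 and 3 reads in untreated, 4 and 1 in histidine-depleted and 10 and 9 in tryptophan-depleted libraries, and shares 29.9% of its exonic bases with a gene on its strand. These genes were not tested, and the tryptophan-depleted libraries of SLC43A3 lay above the others.

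SLC7A11, SLC7A5, SLC3A2, SLC7A1, SLC1A4, SLC1A5, SLC38A2 and SLC6A9 are known targets of ATF4. After tryptophan depletion 7 of these 8 were higher and SLC7A11 was lower, where 36.1% of all genes were higher and 34.8% lower, with a median log2 fold change of 0.77 against 0.013 for all genes tested. Without histidine 2 were higher (SLC3A2 and SLC1A5, the latter reversed with quantile normalization), 4 lower and 2 not called, where 39.1% and 38.2% of all genes were higher and lower, with a median of -0.13 against 0.010. Among these calls, those of SLC1A5 (higher) and SLC7A5 (lower) were lost when either histidine-depleted library was left out, and in limma without the trend. Compared directly, all 8 were lower after histidine than after tryptophan depletion (median -0.69 against 0.018), where 38.4% of all genes were lower. No alternative tried reversed any of these 8 direct differences. The differences range from -2.18 for SLC6A9 to -0.078 for SLC3A2, and at an adjusted p under 0.05 that of SLC3A2 was lost in 3 alternatives and the other 7 in none. With the 2-fold limit 2 of the 8 remained called, SLC6A9 and SLC1A4.

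**Figure D2:**
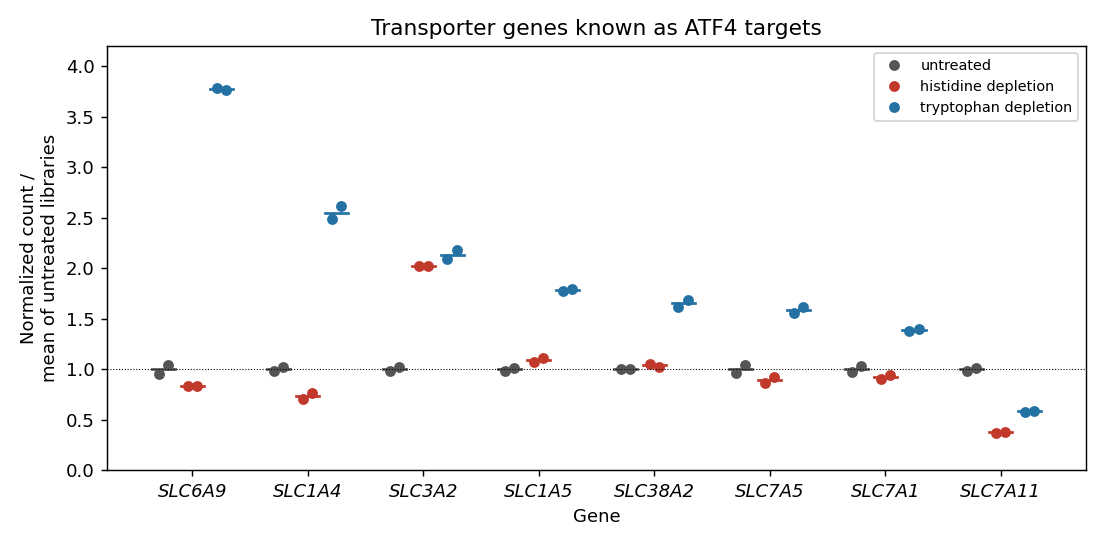
Normalized count of each library divided by the mean of the untreated libraries for the 8 transporter genes known as ATF4 targets, with points for libraries and lines for group means. The tryptophan-depleted libraries lie above the untreated ones except for SLC7A11, and SLC3A2 alone reaches about 2 in both depletions.

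ATF4 is known to bind a C/EBP-ATF response element (CARE), and the promoters were searched for its letters. Binding there, and its part in the changes above, was not tested. Windows from 250 bases before to 50 after each RefSeq start site (GRCh38.p14) were matched by symbol for 26 of the 32 genes, in 47 windows. The letters TGATGNAA, searched on both strands, were found in 6 of the 47 windows and 6 of the 26 genes, against 3.62% of all 35116 windows and 4.46% of all 27305 genes. The 26 genes have more windows each than genes at large, which raises their share per gene. The 6 genes with a match are SLC1A3, SLC1A4, SLC1A5, SLC38A1, SLC3A2 and SLC7A1. Of these SLC1A3 is barely transcribed here and was not tested. The other 5 were called higher without tryptophan, as were 13 of all 27 transporter genes tested and 36.1% of all genes. Without histidine SLC1A5, SLC38A1 and SLC3A2 were called higher and SLC1A4 lower, where 39.1% and 38.2% of all genes were. SLC7A1 was not called without histidine. None of the matches overlaps one of the other motifs searched. The stretches of the 5 transcribed genes, 30 bases each and written along the gene, are shown with the matched letters in capitals.
SLC1A4, chr2:64989381-64989410, plus strand: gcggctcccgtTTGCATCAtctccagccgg
SLC1A5, chr19:46784893-46784922, minus strand: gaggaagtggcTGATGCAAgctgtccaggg
SLC3A2, chr11:62881719-62881748, plus strand: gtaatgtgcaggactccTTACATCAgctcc
SLC7A1, chr13:29595663-29595692, minus strand: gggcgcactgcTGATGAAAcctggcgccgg
SLC38A1, chr12:46266502-46266531, minus strand: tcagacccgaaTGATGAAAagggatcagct
The starts used for SLC1A4, SLC1A5, SLC3A2 and SLC38A1, and for SLC36A1 further on, lie inside the gene, downstream of its outermost start in gencode. In SLC1A4 and SLC3A2 the match lies on the opposite strand and is therefore read as its reverse complement. The first matched base is at -7 from the start site in SLC1A4, -97 in SLC1A5, 38 in SLC3A2, 8 in SLC7A1 and -4 in SLC38A1. Of the 13 genes that rose without tryptophan, the other 8 (SLC6A9, SLC7A5, SLC38A2, SLC38A5, SLC38A10, SLC36A4, SLC38A7 and SLC7A6) have no match in their windows, which says only that these letters are not there. SLC7A11 has no window in the table.

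A second set of letters, the E-box CACGTG read by MYC and by the lysosomal regulators TFEB and TFE3, was found in 8 of the 47 windows and 8 of the 26 genes, against 7.26% of all windows and 8.77% of all genes, namely SLC1A5, SLC36A1, SLC38A5, SLC38A7, SLC43A1, SLC7A5, SLC7A7 and SLC7A8. They include genes that rose and genes that fell in each depletion. SLC36A1 was the only window of the 47 with more than 1 E-box before the start site, and its 250 bases before that start, which carry both in capitals, are shown for this reason.
SLC36A1, chr5:151447353-151447602, plus strand: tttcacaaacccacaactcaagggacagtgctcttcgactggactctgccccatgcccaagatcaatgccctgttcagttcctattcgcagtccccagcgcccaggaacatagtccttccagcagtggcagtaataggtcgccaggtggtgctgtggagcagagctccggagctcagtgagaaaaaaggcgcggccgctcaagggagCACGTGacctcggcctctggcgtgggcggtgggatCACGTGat
The antioxidant response element TGACNNNGC, read by NRF2, was found in 7 of the 47 windows and 7 of the 26 genes, against 13.3% of all windows and 16.1% of all genes. TFE3 itself had 5401 and 5676 counts in untreated, 23069 and 23497 in histidine-depleted and 8889 and 9246 in tryptophan-depleted libraries (2.08 and 0.70 on the log2 scale), and TFEB 598 and 594, 329.8 and 369 and 917 and 890.0. Whether either bears on SLC36A1 was not tested.

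Carriers of the missing amino acid are given next, with shares called that are near those of all genes, 77.3% without histidine and 70.8% without tryptophan. The lists are short and may leave out other transporters here that carry these amino acids, so they do not give the response of all such carriers. Of the 6 genes listed as histidine carriers (SLC7A5, SLC7A8, SLC38A3, SLC38A5, SLC6A14 and SLC6A19), 4 were tested without histidine. SLC7A8 was higher and SLC7A5 and SLC38A5 were lower. The listed tryptophan carriers SLC7A5, SLC7A8, SLC16A10, SLC36A4, SLC6A14 and SLC6A19 gave 5 tested genes without tryptophan. SLC7A5 and SLC36A4 were higher and SLC7A8 and SLC16A10 lower. Only SLC36A4 among the listed tryptophan carriers rose in both media.

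Genes around the transporters were read from further lists, with the shares of all genes called, 77.3% without histidine and 70.8% without tryptophan, as the background. Of 26 ATF4 pathway genes other than transporters, 24 were tested. Without tryptophan 20 of them were higher and 2 lower, where 36.1% and 34.8% of all genes were, and 11 changed by at least 2-fold, where 20.5% of all genes did. Their median log2 fold change was 0.97. Without histidine 4 were higher and 14 lower (median -0.51), against 39.1% and 38.2% of all genes, and directly 1 was higher and 23 were lower (median -1.35), against 39.9% and 38.4%. FGF21 had 29.5 and 47.7 counts in untreated, 38.9 and 39.7 in histidine-depleted and 352 and 352 in tryptophan-depleted libraries. DDIT3, the gene of the stress factor CHOP, had 1198 and 1177, 2011 and 1806 and 4758 and 4739. NUPR1 and CTH, the gene of cystathionine gamma-lyase, fell without histidine (-1.75 and -1.24) and ATF3 rose (1.49).

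Of 24 other plasma membrane amino acid transporters 7 were tested. Without histidine 3 were higher and 4 lower, where 77.3% of all genes were called, and without tryptophan 5 were higher and 1 lower, where 70.8% were. SLC38A11 fell in both media, from 892 and 825 to 71.4 and 111 and 139.8 and 116 counts. SLC6A13, a carrier of GABA and taurine, had 6.56 and 2.98 in untreated, 144 and 111 in histidine-depleted and 14.9 and 19.2 in tryptophan-depleted libraries, and SLC6A20, a proline carrier, 583 and 623, 211 and 264 and 951 and 937. Among 4 peptide and histidine transporters, SLC15A2 was higher in both media (0.76 and 0.81) and the only one called.

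Of 5 further lysosomal transporters 4 were higher and 0 lower in each depletion, where 39.1% (histidine) and 36.1% (tryptophan) of all genes were higher. SLC66A1 (PQLC2), the lysosomal exporter of cationic amino acids, went from 648 and 683 to 1819.6 and 1768 without histidine and 1176 and 1247 without tryptophan. SLC17A5, the sialic acid exporter, rose more without tryptophan (0.44 and 1.23, direct difference -0.81). Of 13 mitochondrial amino acid carriers tested, 6 were higher and 6 lower without histidine and 4 higher and 6 lower without tryptophan. So 12 and 10 were called, where 77.3% and 70.8% of all genes were. SFXN2 fell most in both (-2.11 and -1.19). Of 12 partners and regulators of transporters 11 were tested, with 7 higher and 3 lower without histidine (39.1% and 38.2% of all genes) and 6 higher and 3 lower without tryptophan (36.1% and 34.8%). NEDD4, a ubiquitin ligase, rose without histidine (1.19), as did HIF1A (1.03), and MYC fell without tryptophan (-0.81).

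The coding sequences of the transporters were counted for both amino acids. Over the canonical coding sequences of gencode, histidine took a median of 1.23% of their codons, against 2.45% over 18936 protein-coding genes, and tryptophan 1.54% against 1.13%. SLC1A1 and SLC38A7 have 2 histidine codons each and SLC7A1 and SLC7A9 have 3, while SLC38A10 has 23, SLC3A1 19 and SLC38A9 17. Tryptophan codons number 3 in SLC1A3, SLC1A4, SLC38A1 and SLC38A3 and 25 in SLC6A14.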

How the data were processed

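Polyadenylated RNA of HT29 cells was sequenced after 48 h in 6 libraries, 2 per condition. According to the study's methods, the authors aligned reads to GRCh38 with STAR 2.7.10a, counted reads on exons of protein-coding genes of gencode 38 with HTSeq 2.0.5 and normalized with DESeq2. The tables nevertheless list 60676 genes. The deposited signal values are normalized counts, in a table for each depletion with its own scaling. Whether molecular identifiers or strand were used in counting is not given in the sources used here. Whole reads were recovered from both tables (100% of values within a tolerance of 0.001), and the untreated reads were the same in both. The tables hold 46390819 to 64388876 reads per library, so that counting error is small except for genes with few reads.

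Each depletion was compared with untreated cells within its table by limma 3.58.1 (trend, two-sided) in R 4.3.3 on log2(normalized count + 1) after removal of genes whose mean was under 10, with Benjamini-Hochberg adjustment over all genes tested and a threshold of 0.05. The methods name DESeq2 for normalization and for differential expression. Here limma was the main test because the deposited values are normalized, and DESeq2 and edgeR were run on the recovered reads as alternatives. For the direct comparison and for printed levels, the 6 libraries shared a single set of median-of-ratios size factors, computed on recovered reads. The fits were tested on simulated data with far fewer changed genes than were called here, so that test does not cover changes this widespread. In it limma recovered 67.3% to 70.0% of the genes changed 1.5-fold, and at most 6.91% of its calls were false. Genes, lengths, codons and coordinates came from gencode 44 on GRCh38, to which 60357 of 60676 identifiers matched. Promoter windows came from RefSeq. The members and gene lists were chosen with earlier results of these data known. All 32 members are named, and of each other list up to 3 genes per comparison with the largest change among those called whose higher group had a mean of 100 normalized counts or more. The cell type markers given by name were named after their values were seen. Alternatives were pseudocounts of 0.5 and 8, no filter and a mean of 50, no trend, quantile normalization, a 2-fold limit, edgeR 4.0.16, DESeq2 1.42.0, all libraries in a single fit, a replicate block and each library left out.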

Additional observations from a re-analysis of the deposited data

Results flagged for a closer look

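The following 9 genes were called in opposite directions against untreated cells in the depletions and also differed directly between them (limma, adjusted p under 0.05), as did 18.0% of all 17470 genes tested in both depletions. All 3143 genes with opposite calls were also called directly, so a direct call adds nothing to the choice by opposite calls. The direct log2 difference, histidine minus tryptophan depletion, was 2.02 for SLC7A8, 1.51 for SLC43A2, 1.43 for SLC36A1 and 0.37 for SLC6A6, which were higher without histidine. It was -0.83 for SLC7A5, -1.31 for SLC38A5, -1.47 for SLC38A10, -1.79 for SLC1A4 and -2.18 for SLC6A9, which were higher without tryptophan. The calls of SLC7A5 without histidine and of SLC6A6 without tryptophan were lost when a depleted library was left out, and those of SLC6A6 without histidine and SLC36A1 without tryptophan with quantile normalization, while the direct differences of these 9 genes kept their calls at an adjusted p under 0.05 in every alternative run gene by gene. With the 2-fold limit, SLC7A5 and SLC6A6 were not called directly. The depletions used media of different bases, and the base and the missing amino acid cannot be told apart.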

How the results depend on the processing

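Of the transporter genes, 21 of 27 without histidine, 20 of 27 without tryptophan and 19 of 26 in the direct comparison kept direction and side of the adjusted p threshold in every alternative other than the 2-fold limit. With that limit, calls fell to 8 without histidine (4 higher, 4 lower), 6 without tryptophan (3 higher, 3 lower) and 9 directly (4 higher, 5 lower). With a mean of at least 50, 1 gene was lower by 2-fold without tryptophan. Quantile normalization reversed SLC1A5 (-0.21) and SLC38A2 (-0.21) without histidine and SLC38A9 without tryptophan (0.075). SLC1A5 and SLC38A2 were then called lower (limma adjusted p = 5.12e-05 and 4.63e-04), and SLC38A9 was not called (limma adjusted p = 0.301). Directly, with a library left out, SLC16A10 ran from -0.11 to 0.17 and SLC38A1 from -0.0344 to 0.033 (both positive without histidine-depleted replicate 2, and SLC38A1 also without tryptophan-depleted replicate 2). The causes were not tested. Alternatives under which a gene of low counts fell below the filter gave no value for it.

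With each library left out in turn, calls were 21 to 24 without histidine (10 to 11 higher, 11 to 13 lower), 20 to 23 without tryptophan (12 to 13 higher, 8 to 10 lower) and 21 to 23 directly (7 to 8 higher, 13 to 15 lower). Genes past 2-fold without histidine were 3 to 5 higher and 4 lower, without tryptophan 3 higher and 2 to 3 lower, and directly 4 higher and 5 lower. Same-numbered libraries did not deviate together (correlation 0.042, 0.0020 and -0.041 over 18264 genes), so the numbers do not pair the samples. A replicate block gave 24, 23 and 23 calls in the 3 comparisons. It added SLC7A1 without histidine and SLC1A1 directly (limma adjusted p = 0.0470 and 0.0397), dropped SLC38A9 directly (0.0546) and changed no other call. Depth limits SLC6A14, SLC7A9, SLC16A10 and SLC7A8 and the 5 genes that were not tested.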
